A study of Mus musculus with 4 samples.

Results

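The FGF4 signalling group comprised 10 genes, taken by platform symbol with every probe set that carries the symbol. They were the ligand Fgf4, the receptors Fgfr1, Fgfr2 and Fgfr3, the inhibitors Spry2, Spry4, Spred1 and Dusp6, and the transcription factor genes Etv4 and Etv5. All 10 were found, with 32 of the 45101 probe sets of the array, out of 18193 genes with a probe set of their own. The choice used no measured value, but it was made with earlier results of these data known. Total RNA of 4 mouse embryonic stem (ES) cell cultures had been hybridised to 1 Affymetrix array each. The cultures were 2 lines homozygous for a BAF250 knock-out (ko1 and ko2), 1 heterozygous line and 1 wild type line. BAF250 is the ARID-domain subunit of the BAF chromatin remodelling complex, encoded by Arid1a or Arid1b; the labels do not say which. All lines were grown on gelatin without feeder cells, in serum with the factor that the labels call leukocyte inhibitory factor, and no other treatment is named. The labels give no strain, passage or clonal origin, and the wild type and heterozygous groups hold 1 array each.

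FGF4 is a growth factor that ES cells secrete. It binds FGF receptors together with heparan sulphate and acts through RAS and the kinases MEK and ERK. In the blastocyst this pathway directs cells of the inner cell mass towards primitive endoderm, and in ES cell culture it prepares cells to leave self-renewal. Active ERK induces its own brakes. Sprouty and Spred proteins restrain RAS and RAF, DUSP6 is a phosphatase that removes the activating phosphates of ERK, and ETV4 and ETV5 are transcription factors of the ETS family whose genes are widely used as readouts of FGF activity.

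Promoter windows of 250 bases upstream of the annotated start (RefSeq, build GRCm38.p6) were at hand for 7 of the 10 genes, 9 windows in all. Those of Fgf4, Etv5 and Spry2 are shown, since these genes had a probe set above background on every array. The Fgf4 window lies at chr7:144861136-144861385 on the plus strand, the Etv5 window (the upstream start of that gene) at chr16:22439571-22439820 on the minus strand, and the Spry2 window at chr14:105896820-105897069 on the minus strand. All are written 5′ to 3′ on the strand of the gene, with capitals marking the GC box GGGCGG, a binding motif of SP1-type factors.
Fgf4: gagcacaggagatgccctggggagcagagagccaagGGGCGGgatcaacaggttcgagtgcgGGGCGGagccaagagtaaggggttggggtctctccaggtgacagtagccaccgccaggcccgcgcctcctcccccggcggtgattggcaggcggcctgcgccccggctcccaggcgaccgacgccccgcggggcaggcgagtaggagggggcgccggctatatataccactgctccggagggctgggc
Etv5: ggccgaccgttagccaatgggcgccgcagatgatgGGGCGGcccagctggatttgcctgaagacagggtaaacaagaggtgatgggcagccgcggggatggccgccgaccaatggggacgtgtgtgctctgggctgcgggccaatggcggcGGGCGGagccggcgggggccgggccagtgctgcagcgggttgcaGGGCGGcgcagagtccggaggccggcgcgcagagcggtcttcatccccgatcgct
Spry2: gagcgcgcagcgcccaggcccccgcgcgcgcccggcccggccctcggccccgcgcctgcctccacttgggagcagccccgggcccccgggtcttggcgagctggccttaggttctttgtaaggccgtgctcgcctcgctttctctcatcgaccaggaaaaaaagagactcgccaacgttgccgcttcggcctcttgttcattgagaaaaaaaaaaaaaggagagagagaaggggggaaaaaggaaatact
The Fgf4 window held 2 GC boxes, the Etv5 window 3 and the Spry2 window 0. Over all 9 windows, 5 held the GC box on either strand, against 32.7% of 32851 promoter windows of the same length. The ETS core CCGGAA was in 0 of the 9 windows (12% of all windows), the octamer ATGCAAAT in 0 (1.6%) and the SOX motif AACAATG in 0 (3.29%). These letters were searched on both strands and only within the windows, so sites elsewhere around a gene could not be found. With 9 windows and motifs this rare, 0 hits cannot be told apart from the share of all windows. Since only the GC box was found, different motifs did not overlap, but in an Fgfr3 window (not shown) 2 GC boxes overlapped each other.

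Facts of the arrays bear on every value below. Values are MAS5 signals, read per probe set on a linear scale without a stated unit, and an array's background was the highest signal among its 27 probe sets for bacterial RNA that had not been added. It was 5.55 in ko1 and 3.82 in ko2, with 6.92 on the heterozygous and 7.57 on the wild type array. The median signal was 2.7, 2.61 and 2.74 in ko1, ko2 and heterozygous, against 4.01 in wild type, and the median log2 difference of homozygous minus wild type over 13729 tested genes was -0.75 as deposited. Log2 values were therefore centred on each array's median, after which the same median was -0.18. The 3′ to 5′ signal ratio of the actin controls, a sign of RNA quality, was 5.01, 2.61, 2.86 and 1.3 in ko1, ko2, heterozygous and wild type. Its part in the results was not tested. Arid1a had signals of 7.03 and 3.57 in the homozygous lines, against 50.4 in heterozygous and 109 in wild type, and fell against wild type (-3.70 ± 0.56, adjusted p = 0.0113); whether its probes lie in the disrupted stretch is not stated. Arid1b did not pass the filter on dim genes. ES cell markers were above background on all arrays (10 of 10 genes), with summed signals of 796 and 908 in the homozygous lines, 1970 in heterozygous and 3350 in wild type. Most of that signal came from Dppa5a (658 and 725, against 1540 and 2340), which was not called (-1.20 ± 0.90, limma adjusted p = 0.83). In the comparison of homozygous with wild type, 1 of the 10 ES cell markers fell (Utf1, a chromatin factor of pluripotent cells) and none rose. Of 13 endoderm markers, 7 rose and none fell. Against wild type and heterozygous together, 6 of the 10 ES cell markers fell and 11 of the 13 endoderm markers rose. All 13 were above background in both homozygous lines, with summed signals of 7010 and 3890, while 4 were above it in heterozygous (sum 113) and 5 in wild type (sum 153). Most of the endoderm signal came from Sparc (3880 and 2310, against 61.2 and 90.7). Fibroblast markers summed to 42.7 and 59.4 in the homozygous lines, 22.3 in heterozygous and 32.3 in wild type, with 4, 5, 0 and 2 of 9 genes above background, and none was called. Trophoblast markers summed to 478 and 359, against 124 and 119. Most of that signal came from the keratin genes Krt8 (188 and 89.6, against 46.2 and 30.3) and Krt18 (252 and 232, against 54 and 40.9). Of 9 tested only Krt18 rose against wild type, and only Krt8 and Krt18 rose against wild type and heterozygous together. Eomes and Ascl2 were at background on all 4 arrays. The part of such cells in the results below was not tested. In RNA of whole cultures, fewer cells of a type and less RNA per cell cannot be told apart.

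The first question was how the ligand differed when both copies of BAF250 were disrupted. The brightest probe set of Fgf4 (1420085_at) read 5.72 in ko1 and 4.27 in ko2, against 33.1 in heterozygous and 75.7 in wild type. The homozygous values lay just above the background of their arrays, and both were far below the other arrays. On the centred log2 scale Fgf4 fell by 3.20 in homozygous against wild type cells (-3.20 ± 0.56, SE; 2 arrays against 1), a 9.19-fold decrease with a limma adjusted p = 0.0325. Both homozygous lines showed it, ko1 at -3.06 and ko2 at -3.34.

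Fgf4 was the only member called. Of the 9 members tested, 1 fell and 0 rose, while 0.0364% of all 13729 tested genes were called lower and 0.328% higher. The tested members had a median of -1.34, against -0.18 over all tested genes. That median is a description, since the filter also admits a gene that is bright on a single array. The call of Fgf4 depended on the processing: its adjusted p was 0.053 after quantile normalization, 0.0678 without the filter on dim genes and 0.382 when all its probe sets were averaged (-2.60 ± 0.59), and it spanned 0.000204 to 0.611 over the alternatives with a test.

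**Figure D1:**
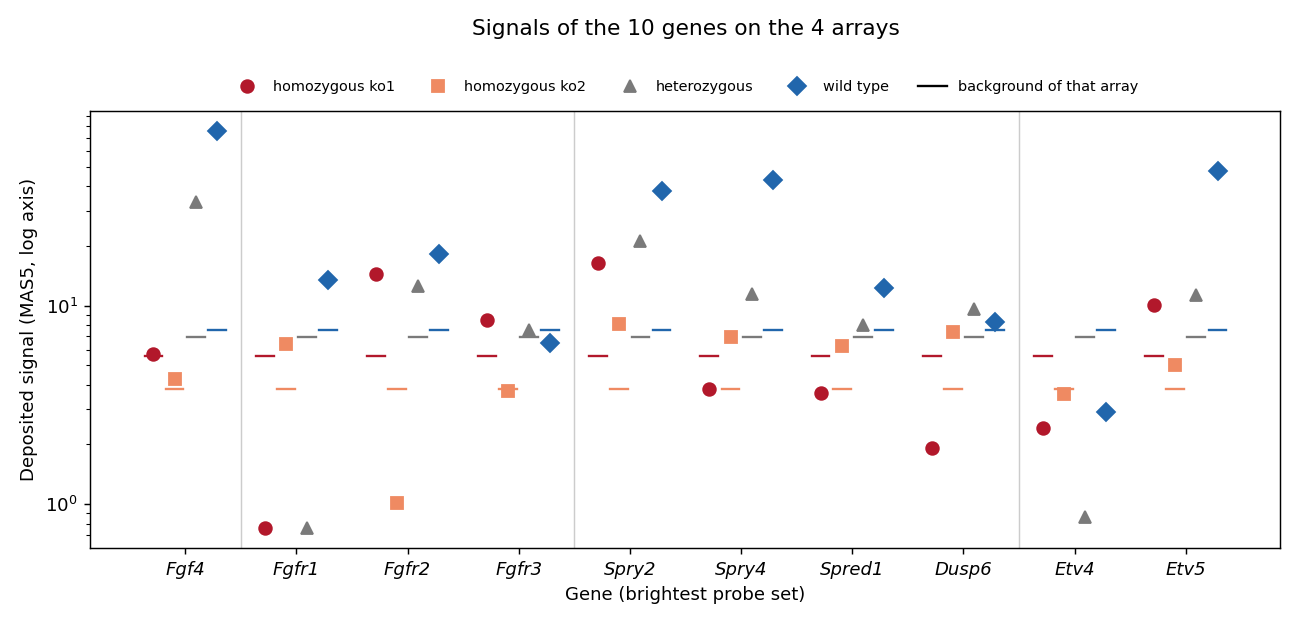
Deposited MAS5 signal (log axis) of the brightest probe set of each of the 10 genes, with 1 point per array and a short bar at the background of that array. Fgf4 stands at 5.72 and 4.27 in the homozygous lines, against 33.1 in heterozygous and 75.7 in wild type, while the Fgfr3, Dusp6 and Etv4 points lie close to the bars or below them.

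The other probe sets of Fgf4 also read highest in wild type. Probe set 1420086_x_at read 6.44 and 9 in ko1 and ko2, against 24.9 in heterozygous and 50.1 in wild type. It was above background on all arrays, and the groups did not overlap, but its log2 difference of -2.06 ± 0.59 did not pass the test over all probe sets (adjusted p = 0.159). Probe set 1449729_at was above background in wild type alone, at 20.9, against 1.97 and 0.159 in the homozygous lines and 2.19 in heterozygous. Probe set 1450282_at read 4.1 and 6.54 in the homozygous lines, 1.51 in heterozygous and 28.7 in wild type, so here the heterozygous array was the lowest. The first 3 probe sets named were designed on the same transcript accession and are not independent measurements. In the fit over 22140 probe sets, 1420085_at fell (-3.21 ± 0.59, adjusted p = 0.00403), 1 of the 25 member probe sets past the filter, where 0.104% of all probe sets were called lower.

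The heterozygous culture, a single array set against a single wild type array, read below wild type on all 4 Fgf4 probe sets. Heterozygous minus wild type was -0.57 ± 0.65 on 1420085_at after centring (adjusted p = 1) and -1.18 with the signals as deposited. On the centred scale it was -0.38 on 1420086_x_at, whereas on the other 2 probe sets it was -2.31 and -3.14, with the heterozygous array at background. Homozygous minus heterozygous was -2.63 ± 0.56 for the gene (adjusted p = 0.0977), so Fgf4 did not pass there. In the fit over all probe sets, the same probe set was called in that comparison (-2.62 ± 0.59, adjusted p = 0.0338, with 0.0407% of probe sets called lower). Set against wild type and heterozygous together, the homozygous lines had 7.53-fold less Fgf4 signal (-2.91 ± 0.46, adjusted p = 0.000474). That was the only member called among 9 in that fit, where 0.335% of genes were called lower and 0.889% higher. These comparisons share the homozygous arrays and do not add to each other as evidence.

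Receptors came next. FGFR1 is the main receptor of ES cells, and FGFR2 is associated with primitive endoderm in the embryo. Fgfr1 read 0.759 and 6.44 in ko1 and ko2, 0.757 in heterozygous and 13.5 in wild type on its brightest probe set (1425911_a_at). The ko1 and heterozygous values were below background, so the groups overlapped, and the difference of homozygous minus wild type was -1.59 ± 1.34 (adjusted p = 0.842). It was -0.39 for ko2 and -2.79 for ko1. Probe set 1436551_at of Fgfr1 ran the other way, with 0.917 and 7.42 in the homozygous lines, 3.61 in heterozygous and 1.46 in wild type.

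Fgfr2 read 14.4 in ko1 and 1.02 in ko2, against 12.6 in heterozygous and 18.2 in wild type (1433489_s_at). The low value was that of ko2 alone. The difference of -1.34 ± 1.05 (adjusted p = 0.836) became 0.19 without ko2 and -2.87 without ko1. A second Fgfr2 probe set, 1420847_a_at, was higher in both homozygous lines, at 3.77 and 5.84, than in wild type, at 0.804, but heterozygous read 3.57 and ko2 alone exceeded its background. Fgfr3 read 8.43 and 3.71 in the homozygous lines, 7.53 in heterozygous and 6.47 in wild type (0.39 ± 0.89, adjusted p = 0.942). Its sign turned under 4 of 10 alternatives, including the comparison with wild type and heterozygous together. A second Fgfr3 probe set, 1425796_a_at, ran the other way. It read 1.18 and 4.5 in ko1 and ko2, 1.65 in heterozygous and 13.2 in wild type, with ko2 and wild type alone above background. Its difference in the fit over all probe sets was -1.61 ± 1.25 (limma adjusted p = 0.828). None of the 3 receptors passed the test, and on no receptor probe set were all 4 arrays above background, so this array gave no ordering of the receptors.

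Among the inhibitors, Spry2 alone had a probe set above background on all arrays. Spry2, on probe set 1436584_at, read 16.4 and 8.11 in ko1 and ko2, against 21.2 in heterozygous and 37.6 in wild type. All 4 values were above background and both homozygous values were the lowest, yet the difference of -1.08 ± 0.58 did not pass (adjusted p = 0.772). The dimmer Spry2 probe set (1421656_at) had the same order of groups, with 0.975 and 2.97 in the homozygous lines, 4.3 in heterozygous and 7.71 in wild type, the only value above background.

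Spry4 read lowest in the homozygous lines. Its brightest probe set (1440867_at) gave 3.81 and 6.96 in the homozygous lines, against 11.4 in heterozygous and 42.9 in wild type. The ko1 value was below background. Raising ko1 to that background still left the homozygous pair at least 4.28-fold below wild type, and the fitted difference was -2.33 ± 0.69 (adjusted p = 0.35). The heterozygous array was also low, at -1.25 ± 0.79 against wild type (adjusted p = 1). The other Spry4 probe sets were mostly at background. Of these, 1445669_at read 0.747 and 1.15 in the homozygous lines, 0.0941 in heterozygous and 10.2 in wild type, and 1422020_at read 5.96 in ko1, above its background, with 0.232 in ko2, 0.585 on the heterozygous array and 4.77 in wild type.

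Dusp6, often the most sensitive readout of ERK, had a single probe set, with 1.92 in ko1 and 7.33 in ko2, against 9.64 in heterozygous and 8.25 in wild type. The low value was ko1 alone, and the difference (-0.41 ± 0.98, adjusted p = 0.947) was 0.46 without ko1. Spred1 had 8 probe sets, of which 5 passed the filter and 0 were above background on all arrays. The brightest (1423160_at) read 3.65 and 6.25 in the homozygous lines, 8.02 in heterozygous and 12.3 in wild type, with a difference of -0.68 ± 0.83 (adjusted p = 0.886). The 8 did not agree in direction: 1423162_s_at, too dim to be tested, read 5.8 and 2.48 in the homozygous lines, 1.26 in heterozygous and 0.345 in wild type.

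**Figure D2:**
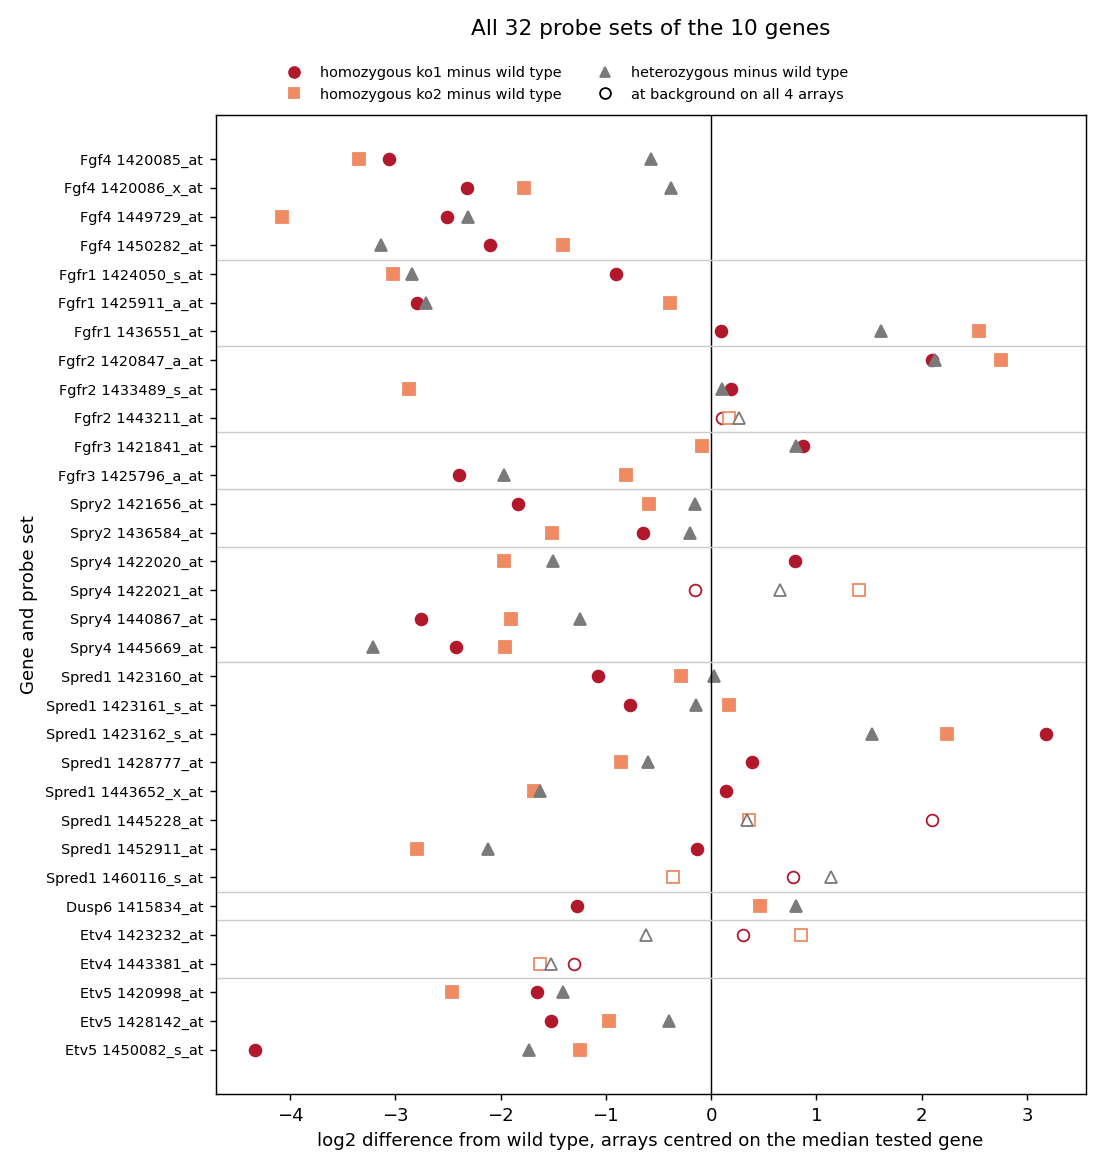
Log2 difference from wild type (x axis, arrays centred on the median tested gene) for each of the 32 probe sets (rows), with ko1, ko2 and heterozygous as separate points and open points where no array was above background. The 4 Fgf4 and 3 Etv5 probe sets lie left of 0 for every array, while those of the receptors and of Spred1 scatter on both sides.

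The ETS genes split by signal. Etv5 was measured well, and each of its 3 probe sets read highest in wild type. On 1420998_at it read 10.1 and 5.05 in ko1 and ko2, 11.3 in heterozygous and 47.7 in wild type, all above background. Both homozygous values were the lowest, but the heterozygous value was close to ko1. The difference of homozygous minus wild type was -2.05 ± 0.64 (adjusted p = 0.422), and that of heterozygous minus wild type was -1.41 ± 0.74 (adjusted p = 1). Probe set 1428142_at gave 7.88 and 11 in the homozygous lines, against 16.7 in heterozygous and 34.3 in wild type. On 1450082_s_at the homozygous lines stood apart from each other, with 0.715 in ko1 and 10.3 in ko2, against 7.19 in heterozygous and 39.2 in wild type. Etv4 read between 0.216 and 3.58 on its 2 probe sets, below background on all 4 arrays, and was not tested.

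Across the tested members, the homozygous lines lay below both other arrays in 5 of 9 genes after centring (Fgf4, Spry2, Spry4, Spred1 and Etv5), against 21.5% of all tested genes. By probe set the count was 9 of the 25 past the filter, against 21.1% of all probe sets. Of these, 3 were of Fgf4, 2 of Spry2 and 2 of Etv5, and probe sets of the same gene are not independent. The filter also admits a probe set that is bright on a single array, so the count is a description. In 0 of the 9 genes did both homozygous lines lie above both other arrays, which 18.1% of the tested genes did. Homozygous minus heterozygous gave 0 calls by limma (0.0291% of genes were called lower and 0.32% higher), with 1 member at an unadjusted p under 0.05. Heterozygous minus wild type gave 0 member calls by limma and 0 at an unadjusted p under 0.05, where 0% of all genes were called in either direction. Where signals were kept as deposited, without centring, 3 of 9 members were lower in homozygous than in wild type (Fgf4, Spry4 with adjusted p = 0.0318 and Etv5 with adjusted p = 0.0433), but on that scale 0.612% of all genes were called lower, against 0.0364% on the centred scale. An unadjusted limma p under 0.05 was reached by the same 3 genes on the centred scale (Spry4 0.00498, Etv5 0.007). The share of all tested genes at an unadjusted p under 0.05 was not counted, so these counts are a description only.

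**Figure D3:**
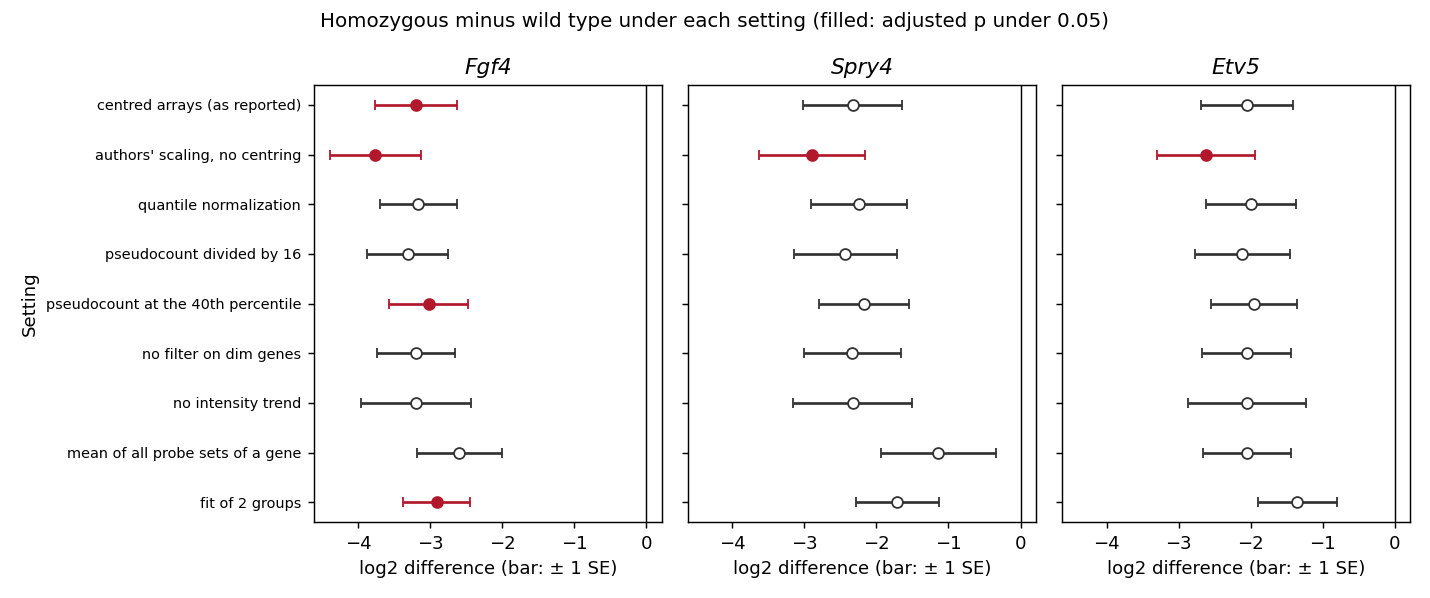
Log2 difference of homozygous minus wild type (x axis, with bars of ± 1 SE) for Fgf4, Spry4 and Etv5 under each processing setting (rows), filled where the adjusted p was under 0.05. The row for the fit of 2 groups shows homozygous minus wild type and heterozygous together. All points lie below 0, Fgf4 between -3.76 and -2.60, and Spry4 and Etv5 are filled only for signals kept as deposited.

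The rest of the pathway was examined for comparison. Of 82 further FGF and ERK genes listed, 74 had a probe set of their own and 60 were tested. None was called in any comparison by limma. For homozygous against wild type, 8 reached an unadjusted limma p under 0.05, a count without the share over all tested genes. The median was -0.17, against -0.18 over all tested genes. The homozygous lines lay below both other arrays in 17 of the 60 and above both in 12, where 21.5% and 18.1% of all tested genes did so.

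The signalling chain between receptor and ERK had group medians close to that of all genes. The adaptors stood at -0.18 (9 tested) and the RAS to ERK cascade at -0.16 (12 tested). Gab1, a docking protein that recruits SHP2, read 42.5 and 41.9 in the homozygous lines, 40.5 in heterozygous and 69.1 in wild type (-0.14 ± 0.46, adjusted p = 0.958). Map2k1, the gene of MEK1, read 36.9 and 33.4, against 21.8 in heterozygous and 44.3 in wild type (0.23 ± 0.47, adjusted p = 0.937). The adaptor gene Crkl had a difference of -0.53 ± 0.52 and Rras, a RAS-related GTPase, of 1.07 ± 0.60, neither past the test.

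Other FGF ligands had a median of 0.19 (12 tested). Fgf1 read 10.5 and 8.57 in the homozygous lines, 6.06 in heterozygous and 1.32 in wild type, the last 2 at background (2.91 ± 0.93, adjusted p = 0.437), and Fgf9 had a difference of 0.09 ± 0.79. Among the other receptors, Fgfr4 stood at 0.06 ± 0.68 and the decoy-type receptor gene Fgfrl1 at 0.01 ± 0.73. The 9 other inhibitors tested had a median of -0.29. Dusp9, an ERK phosphatase gene, read 47 and 19 in the homozygous lines, 24 in heterozygous and 17.3 in wild type (1.34 ± 0.58, adjusted p = 0.681), and Spred2 had a difference of -0.83 ± 0.72. The 15 other target genes had a median of -0.71. Ier2, an immediate early gene, read 10.8 and 27.7 in the homozygous lines, 34 in heterozygous and 68.3 in wild type (-1.37 ± 0.59, adjusted p = 0.681), and Ccnd1, the gene of cyclin D1, read 0.796 and 11.6, against 21 and 42.8 (-2.79 ± 1.02, adjusted p = 0.572). The ko1 value of Ccnd1 was below background and carried most of that difference (-4.37, against -1.21 for ko2), and at its background the homozygous pair was at least 3.36-fold below wild type. Of the 15 targets, 6 lay below both other arrays in both homozygous lines and 4 lay above both, where 21.5% and 18.1% of all tested genes did so.

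**Figure D4:**
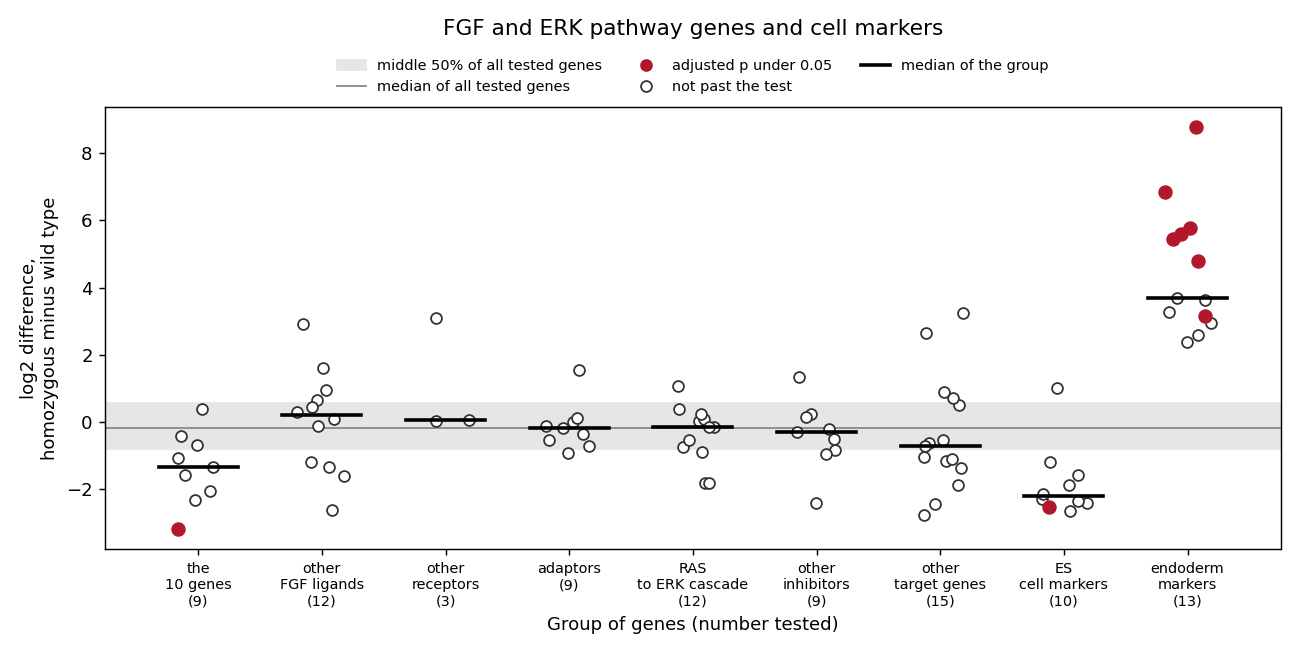
Log2 difference of homozygous minus wild type (y axis, arrays centred) for each tested gene of the FGF4 group, 6 other pathway groups, and the ES cell and endoderm markers, with a bar at each group's median, filled points where the adjusted p was under 0.05, and a grey band over the middle 50% of all tested genes. The FGF4 group has a median of -1.34 and 1 filled point, the other pathway groups lie between -0.71 and 0.19 with none, and the markers stand at -2.23 and 3.68.

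The factors that act on Fgf4 were measured on the same arrays. Pou5f1 and Sox2 encode OCT4 and SOX2, which bind the Fgf4 enhancer together. Pou5f1 read 11.7 and 42.1 in ko1 and ko2, against 98.7 in heterozygous and 213 in wild type (-2.65 ± 0.65, adjusted p = 0.171). Against wild type and heterozygous together, Pou5f1 fell (-2.40 ± 0.44, adjusted p = 0.00259). Sox2 read 6.83 and 7.82, against 27.7 and 62.6 (-2.42 ± 0.55, adjusted p = 0.124), and likewise fell in the joint comparison (-2.15 ± 0.45, adjusted p = 0.00943). Both had the order of arrays seen for the brightest Fgf4 probe set, with wild type highest, heterozygous next and the homozygous lines lowest. Nanog, Zfp42, Esrrb, Klf2 and Utf1 had that order too, and a link of any of these genes to Fgf4 was not tested. Gata6 and Gata4, endoderm regulators that act downstream of FGF signalling in the embryo, ran opposite to Fgf4. Gata4 rose (3.15 ± 0.56, adjusted p = 0.0325), with 68.2 and 38.4 in the homozygous lines, against 7.02 in heterozygous and 7.98 in wild type. Gata6 read 25.5 and 23.4, against 3.67 and 3.2, both at background (3.26 ± 0.69, adjusted p = 0.0883), and rose against wild type and heterozygous together (2.87 ± 0.58, adjusted p = 0.00653).

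The 5 genes with the profile nearest to Fgf4 were sought among 8044 genes above background in wild type, by the distance over 3 log2 differences from wild type (those of ko1, ko2 and heterozygous). They were Sv2a, a synaptic vesicle glycoprotein gene (distance 0.24), Mrpl50, of the mitochondrial ribosome (0.27), Nudt6, a nudix hydrolase gene (0.27), Mbnl3, of an RNA-binding protein (0.37), and the cationic amino acid transporter gene Slc7a3 (0.38). Slc7a3 gave 5.12 and 2.52 in the homozygous lines, against 24.6 in heterozygous and 61 in wild type. All 5 were below background in both homozygous lines, so their likeness to Fgf4 there is set by the floor of the measurement, and with 3 numbers a gene it is a description only.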

How the data were processed

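The deposited values are linear intensities (signals), 1 per probe set, from MAS5 per the submitters' processing notes. Its version and scaling target are not stated there, and no detection calls were used. Of 45101 probe sets, 34958 had 1 gene symbol in the platform annotation and 932 had several, which were left out. Each gene was represented by its brightest probe set, and 13729 genes whose mean signal exceeded 2.55 (the 40th percentile over probe sets) were tested. A pseudocount of 0.675 (the 20th percentile of signals) was added before taking log2, and each array was centred on its median over the tested genes. Fold changes on that scale understate the change of dim genes.

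Differences were fitted with limma (3.58.1, R 4.3.3), giving each genotype a mean, with an intensity trend and Benjamini-Hochberg adjustment over all tested genes, at a threshold of 0.05. It has 1 residual degree of freedom, between ko1 and ko2, and 12.45 in total with what limma borrowed across genes; the spread of the single heterozygous and wild type arrays was taken to be the same. A fit of 2 groups has 2 residual degrees of freedom, and another fit took all probe sets past the filter. The labels do not state separate cultures per line, and p-values therefore cover no more than the spread between these samples, which may be technical. Arrays have no sequencing depth; their number limits the precision. The code was tested on simulated data.

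Members, gene lists and tests were chosen with earlier results of these data known. Named were all members, the 2 brightest tested genes of each pathway group, some defining markers and the 5 genes nearest to Fgf4. A bound sets a dim array at its background. Promoter windows and chromosomes came from RefSeq tables of GRCm38.p6. Alternatives changed the scaling, the pseudocount (divided by 16, or 1.84), the filter, the probe set rule, the trend and the homozygous replicates. For single members, the fit of 2 groups was counted as an alternative too.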

Additional observations from a re-analysis of the deposited data

How the results depend on the processing

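For homozygous minus wild type in the 9 tested members, 72 recalculations had a test. Some of them were the fit of 2 groups, which set homozygous against wild type and heterozygous together, a different comparison. Of the 72, 65 kept their side of the threshold, 5 (all for Fgf4) no longer passed it and 2 (Spry4 and Etv5) passed it anew. The direction of Fgf4, Spry2, Spry4, Etv5 and Fgfr1 held under all 10 alternatives each, that fit included. The count of members called lower against wild type, 1 as reported, was 3 with the authors' scaling and 0 after quantile normalization, with the pseudocount divided by 16 (for Fgf4, adjusted p = 0.124), with dim genes kept in, without the intensity trend and with all probe sets averaged. The count of member probe sets called lower, 1 as reported, was 2 with the authors' scaling and 0 without the filter or the trend. Against heterozygous, where 0 were called, the authors' scaling gave 1. Against wild type and heterozygous together the count of 1 became 0 without the trend and with probe sets averaged, and was 1 without either homozygous replicate (1 to 1). Leaving out ko1 or ko2 in the fit of 3 genotypes left no residual degree of freedom and gave values without a test, for Fgf4 -3.34 to -3.06. No member was called higher in any setting. No paired analysis was possible because the wild type and heterozygous groups have 1 array each. Only 5 of the 32 probe sets (of Fgf4, Spry2 and Etv5) were above background on all arrays, which limits what these data can show for the receptors, Spry4, Spred1, Dusp6 and Etv4.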

Other observations

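Some pathway genes outside the naming rule are given as values, chosen after their values were seen. Klb, the co-receptor of endocrine FGFs, read 15.4 and 9.26 in ko1 and ko2, against 0.613 in heterozygous and 1.54 in wild type, both at background. Against a wild type value raised to that background, the homozygous pair stood at least 2.26-fold higher, without passing the test (adjusted p = 0.559). Ier3, an immediate early gene, read 27.6 and 20.4 in ko1 and ko2, against 13.9 in heterozygous and 5.09 in wild type, the last at background. Its homozygous lines were at least 4.38-fold above that background (fitted difference 2.65 ± 0.59, unadjusted p = 0.000683, adjusted p = 0.112). Phlda1, an ERK-responsive gene, gave 19.9 and 6.18 in the homozygous lines, against 5.36 in heterozygous and 1.17 in wild type, both at background, and was at least 2.13-fold higher than in wild type (fitted difference 3.25 ± 0.98, adjusted p = 0.385). Neither passed the test.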
